A study of Mus musculus with 2 samples.

Results

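The nuclear genes of oxidative phosphorylation (OXPHOS) were followed in RNA pulled down with anti-HuR from mouse epididymal white fat. HuR is an RNA-binding protein and the product of Elavl1. Members were the gene rows whose symbol carries a subunit name of 1 of the 5 complexes. The names were Ndufa, Ndufb, Ndufc, Ndufs and Ndufv for complex I and Sdha to Sdhd for complex II. They were Uqcr for complex III, Cox5 to Cox8 for complex IV and Atp5 for complex V. This gave 82 of the 38396 rows of the table, with 36 genes in complex I, 4 in complex II, 8 in complex III, 16 in complex IV and 18 in complex V. The name rule also takes Atp5s, Atp5sl and Cox7a2l, which are not regarded as subunits. It leaves out the Cox4 genes of complex IV and a few subunits with other names. Those with other names are described separately.

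Both libraries came from 6-week-old littermates of a line backcrossed to C57BL/6. The control carried HuR f/f alleles without Cre, and HuR-FKO carried the same floxed alleles with AdipoQ-Cre, which is driven by the adiponectin promoter and therefore acts in adipocytes and not in the other cells of the fat pad. Each genotype had 1 library. The differences therefore lack a replicate check, no test was run and no p-value is given. The study's methods describe pooling of animals for its tissue RNA-seq, and whether this holds for the precipitates is not stated. Input and IgG libraries were not analysed here, and binding by HuR, abundance of the mRNA and background recovery cannot be told apart, and neither can fewer cells of a type and less RNA per cell.

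OXPHOS subunits build the respiratory chain of the inner mitochondrial membrane. Complexes I and II feed electrons to ubiquinone, complex III passes them to cytochrome c and complex IV to oxygen, while complex V, the ATP synthase, uses the proton gradient to make ATP. Most subunits are encoded in the nucleus and imported, a smaller set is encoded in mitochondrial DNA, and complex II is the complex with no mitochondrially encoded subunit. HuR is best known for binding AU-rich and U-rich stretches in the 3′ untranslated regions (UTRs) of mRNAs. In fat, mitochondria are most abundant in brown adipocytes, and some complex IV subunits have isoforms typical of muscle and brown fat.

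The values are FPKM, the fragments of a gene divided by its transcript length in kilobases and by the mapped fragments of its library, on a fixed scale. Ratios are log2 of control over HuR-FKO after raising values under 0.1 FPKM to 0.1. Over the 5571 protein-coding genes with at least 5 FPKM in either library, called all genes below, the median log2 ratio was -2.22, so the typical gene was 4.66-fold higher in HuR-FKO. Members are therefore mainly given relative to this median, a measure that no scaling of the libraries changes: above it means toward control and below it toward HuR-FKO. The libraries were estimated to hold 11040000 and 18400000 fragments, which is approximate. The level of Elavl1 itself was 16.6 FPKM with the control label and 26.1 FPKM with the HuR-FKO label, which goes against the labels on this scale, although it lay 2.97-fold above the median ratio. Below, control and HuR-FKO mean the libraries labelled so, and every direction rests on those labels. The Elavl1 value comes from a precipitate of all cells of the fat pad, with no input, and is not a direct check of the deletion. The white adipocyte markers were present, with 8 of 8 over the minimum and Adipoq at 150 and 621 FPKM, whereas Ucp1, the defining gene of brown fat, was listed at 0 in both.

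Subunit mRNAs were among the abundant mRNAs of both precipitates. Of the 82 members, 74 passed the minimum, including all 36 of complex I, all 4 of complex II and all 8 of complex III, with 12 of complex IV and 14 of complex V. The 8 that did not pass were Atp5g1, Atp5s, Atp5sl, Cox6a2, Cox6b2, Cox7b2, Cox8c and Atp5l2, the last at 101 and 295 FPKM but annotated as a processed pseudogene. The median member was at 48.7 FPKM in control and 167 FPKM in HuR-FKO, at the 93.5 percentile of all genes in both. Members made up 6.74% of the summed protein-coding FPKM in control and 7.18% in HuR-FKO, so their share of the protein-coding signal was similar. This does not hold for the whole precipitate. Scaled to the summed FPKM of all rows (TPM), the member median log2 ratio was -3.18, and 73 of the 74 were at least 2-fold higher in HuR-FKO. At least 5 FPKM in both libraries was found for 69 of the 74, or 93.2%, against 40.0% of all genes. The other 5 (Ndufv1, Ndufs8, Uqcrc2, Cox7a1 and Cox8b) passed through HuR-FKO alone, so their FPKM had to be higher in HuR-FKO.

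The ratios of the members lay close to those of all genes and were less spread. Their median log2 ratio was -1.82, a 3.52-fold higher level in HuR-FKO and 0.41 above the median of all genes. The SD across members was 0.99, against 1.88 across all genes. In HuR-FKO 64 of the 74 members, or 86.5%, were at least 2-fold higher, against 82.4% of all genes, and 1 member, or 1.35%, was at least 2-fold higher in control, against 3.21% of all genes. These directions depend on the scaling: after median centring 6 members were at least 2-fold higher in HuR-FKO and 12 in control, and after upper-quartile scaling 7 and 9. Relative to the median ratio, 51 members lay above and 23 below. Of these, 12 members (16.2%) lay at least 2-fold above it, against 21.8% of all genes, and 6 (8.11%) at least 2-fold below it, against 25.0%. These shares move with abundance: among the 561 genes at 100 FPKM or more in HuR-FKO, 13.2% lay above the median ratio by 2-fold or more and 11.6% lay below it by as much, with an SD of 1.26. Of the 48 members at that level, 3 were that far above and 2 that far below, with an SD of 0.81.

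**Figure D1:**
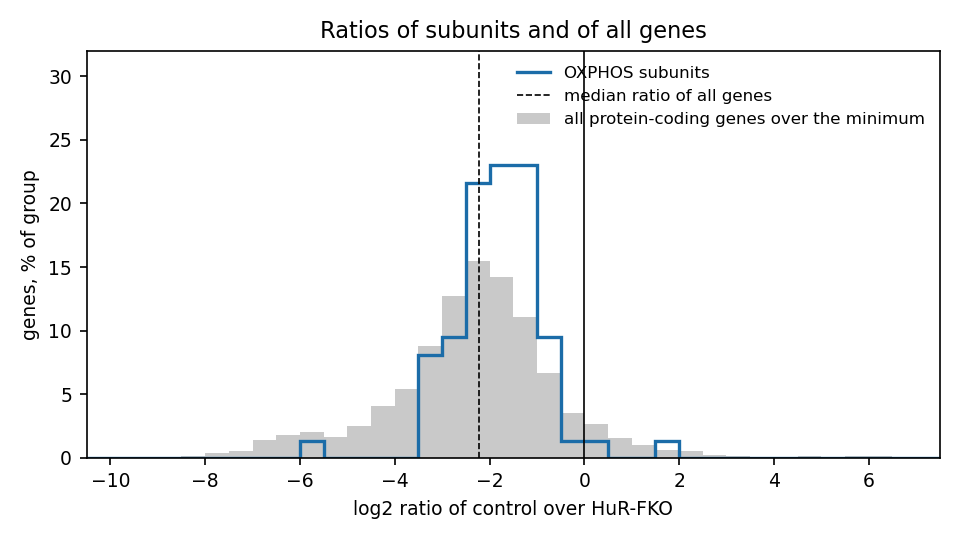
Distribution of log2 ratios of control over HuR-FKO in bins of 0.5, as the percentage of the 5571 genes (grey bars) and of the 74 subunits (blue outline). The subunits fall mostly between -3.5 and -0.5, around the dashed line at the median ratio of all genes, with single members near -5.87 and 1.94.

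The order of the members was largely kept between the libraries. Across the 74 members, log2 FPKM of the libraries had a Pearson correlation of 0.88 and a Spearman correlation of 0.91. Across all genes these were 0.66 and 0.63. Genes are not independent replicates, and both libraries share transcript lengths and annotation. The members were also more abundant, with a median of 48.7 FPKM in control against 3.73 FPKM for all genes, and the correlations were not matched for abundance. In control the most abundant were Cox6a1 (659 FPKM) of complex IV and Uqcrh (598 FPKM), the hinge protein of complex III, followed by Atp5k, Uqcrq, Uqcr11, Ndufa3, Atp5e and Atp5l at 394 down to 267 FPKM. In HuR-FKO Atp5k, subunit e of the ATP synthase, led with 2339 FPKM, followed by Uqcrq, Ndufa3, Uqcrh, Uqcr11, Ndufa5, Atp5b and Cox6a1 at 1808 down to 1025 FPKM. Cox6a1, Uqcrh, Atp5k, Uqcrq, Uqcr11 and Ndufa3 were on both lists.

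**Figure D2:**
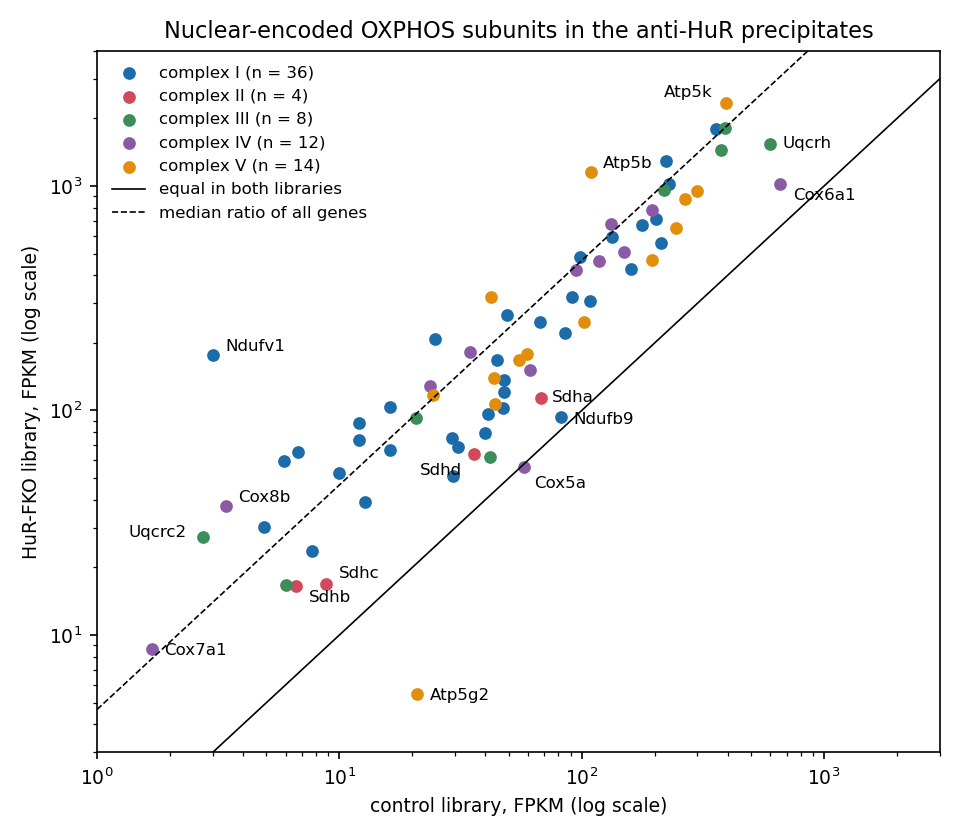
FPKM of the 74 subunits in the control library (horizontal, log scale) and the HuR-FKO library (vertical, log scale), coloured by complex, with 1 point per gene. Most points lie between the line of equality (solid) and the median ratio of all genes (dashed) or near the latter; Ndufv1 (3.02 and 176 FPKM) and Atp5g2 (21.0 and 5.45 FPKM) stand apart on opposite sides.

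The complexes differed in where their members lay. The median relative log2 ratio was 0.32 for complex I, 1.34 for complex II, 0.18 for complex III, 0.15 for complex IV and 0.59 for complex V. Above the median ratio were 23 of 36, 4 of 4, 7 of 8, 7 of 12 and 10 of 14 members. Complex II thus lay furthest toward control, as a group of 4 genes, and the medians of the others were all closer to that of all genes. With a pseudocount of 1 the medians of complexes III and IV turned to -0.12 and -0.07.

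**Figure D3:**
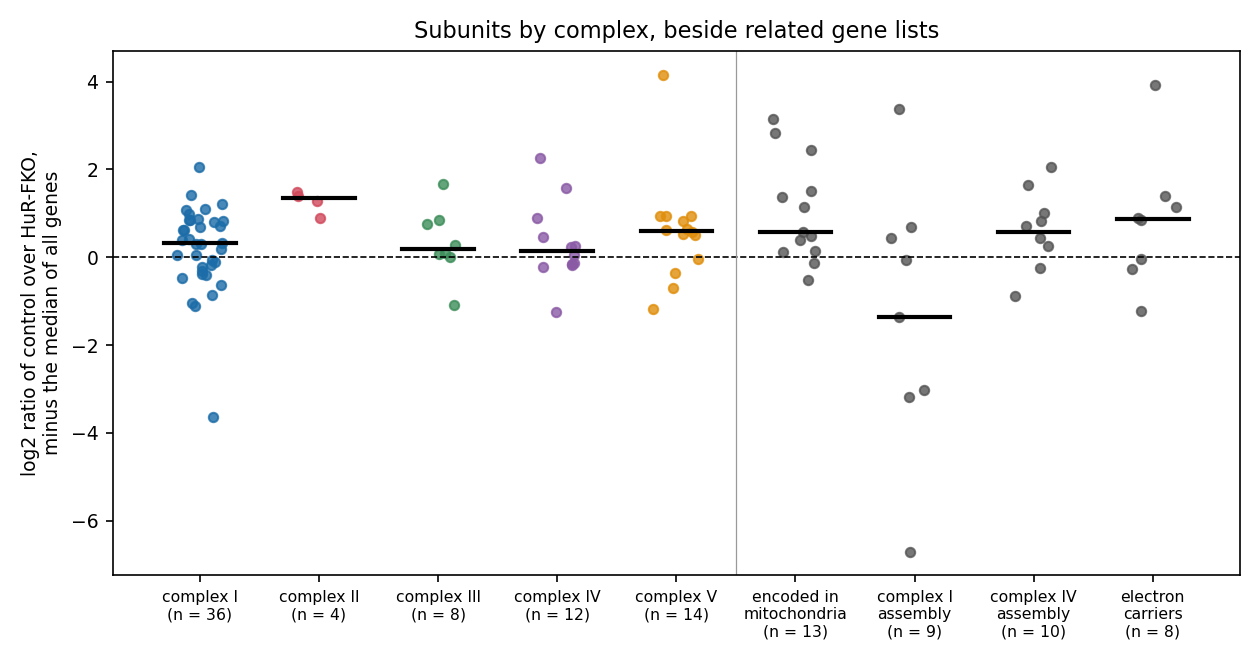
Log2 ratio of control over HuR-FKO minus the median of all genes, with 1 point per gene and a bar at the group median; positive values are toward control. The 4 genes of complex II lie between 0.90 and 1.48, while complex I runs from -3.64 to 2.05 and complex V from -1.18 to 4.16. In the lists right of the grey line, 1 gene each of the assembly lists for complexes I and IV is listed at 0 in control and counts in the median but has no point.

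Complex I takes electrons from NADH, and its 7 nuclear core subunits carry the flavin and the iron-sulfur clusters. They had a median relative log2 ratio of -0.21, with 2 of 7 above the median ratio, while the 29 supernumerary subunits, which surround the core, had a median of 0.40 with 21 above. Within the core, the NADH-oxidising pair Ndufv1 and Ndufv2 lay on opposite sides. Ndufv1, which binds the flavin, was at 3.02 FPKM in control and 176 FPKM in HuR-FKO. This was 58.3-fold higher in HuR-FKO and 12.5-fold below the median ratio, the control value corresponds to about 25.7 fragments, and the gene passed the minimum through HuR-FKO alone. Its partner Ndufv2, an iron-sulfur subunit, was at 47.2 and 103 FPKM, 2.13-fold above the median ratio. The members of this pair were thus at similar levels in HuR-FKO but far apart in control. Ndufv1 has no near copy and no exon shared with another gene in the annotation used.

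Other core subunits lay nearer to the typical gene. Ndufs3 was at 85.3 and 221 FPKM, 0.84 above the median ratio on the log2 scale, but shares exonic bases with another gene and has near copies. Ndufs1, the largest subunit of the electron-input arm, was at 10 and 52.7 FPKM. Ndufs7 (16.1 and 104 FPKM) carries the cluster next to the ubiquinone site, and Ndufs8 (4.87 and 30.3 FPKM) carries iron-sulfur clusters on the path to it. The relative log2 ratios of these 3 ran from -0.47 to -0.17.

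Among the supernumerary subunits of complex I, the values furthest toward HuR-FKO were those of Ndufb4 (5.93 and 59.5 FPKM, 10-fold higher in HuR-FKO), Ndufa9 (6.78 and 65.5 FPKM, 9.66-fold), Ndufa7 (24.7 and 208 FPKM, 8.43-fold) and Ndufa10 (12.1 and 88.0 FPKM, 7.28-fold). Ndufa9 sits at the junction of the peripheral and membrane arms, and Ndufa10 resembles a nucleoside kinase. Furthest toward control were Ndufb9 (82.4 and 93.1 FPKM, 4.13-fold above the median ratio), Ndufa13 (29.4 and 51.2 FPKM, 2.68-fold) and Ndufc2 (39.9 and 79.7 FPKM, 2.33-fold). Ndufb9 is a subunit of the LYR family and Ndufa13 is also known as GRIM-19. All 29 still had the higher FPKM in HuR-FKO on the deposited scale. Ndufa4, counted in complex I by its name and now regarded as a complex IV subunit, was at 178 and 671 FPKM, and its relative Ndufa4l2 at 1.37 and 3.79 FPKM.

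Complex II, succinate dehydrogenase, links the citric acid cycle to the chain. Sdha, the flavoprotein with the succinate site, was at 68.2 FPKM in control and 114 FPKM in HuR-FKO, 2.78-fold above the median ratio. The iron-sulfur subunit Sdhb was at 6.64 and 16.6 FPKM, 1.87-fold above. The membrane anchors Sdhc (8.81 and 16.8 FPKM) and Sdhd (35.9 and 63.8 FPKM) were 2.44-fold and 2.62-fold above. All 4 were thus higher in HuR-FKO on the deposited scale, but by less than the typical gene, and their ratios had an SD of 0.25. None of the 4 has a near copy or shares exonic bases with another gene, and their estimated fragments in control ran from 69.3 (Sdhb) to 430 (Sdha).

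The 3′ UTRs of complex II are shown because all 4 hold at least 1 of the motifs searched. These were the AU-rich pentamer ATTTA and the U-rich heptamer TTTNTTT, both read on the sense strand and allowed to overlap. Holding a motif was common: in principal transcripts ATTTA was found in 40.5% of members and 61.8% of all genes. TTTNTTT was found in 25.7% and 62.8%. The stretch of 30 bases with the most matches is printed for each, in DNA letters from the mm10 annotation, with matches in capitals. The same is shown for Ndufv2, the core subunit of complex I furthest toward control. Positions are chr13:74322840-74322869 (minus strand) for Sdha, chr4:140979157-140979186 (plus) for Sdhb, chr1:171127639-171127668 (minus) for Sdhc, chr9:50596944-50596973 (minus) for Sdhd and chr17:66078868-66078897 (minus) for Ndufv2.
Sdha: agtgaagtacaaatgagcaatctTTTATTT
Sdhb: cctaagtacagcatatgtaataaacATTTA
Sdhc: atataTTTTTTTTTaagATTTATTTATTTA
Sdhd: taattacatggttattttcagaATTTATTT
Ndufv2: tgataTTTCTTTagctatATTTATTTATTT

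The Sdhc 3′ UTR of 2636 bases held 7 copies of ATTTA and 13 of TTTNTTT, and that of Ndufv2, 856 bases, held 6 and 4. Sdhb, with a 3′ UTR of 91 bases, held a single ATTTA. The 3′ UTR of Ndufv1, of 82 bases, held neither motif in the principal transcript. Motifs were also held by members far toward HuR-FKO. The 3′ UTR of Atp5b, of 272 bases, held 4 copies of ATTTA, and that of Ndufb4, of 487 bases, held 1 of ATTTA and 2 of TTTNTTT. Ndufa7 and Cox8b, also toward HuR-FKO, held neither, and nor did Atp5g2, the member furthest toward control. A match is a description of the letters and not a binding site.

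The motifs were also counted over all members. Members have short 3′ UTRs, with a median of 188 bases for the longest annotated one, against 931 bases for all genes. ATTTA was found in 32 of the 74 (43.2%), against 64.4% of all genes, and TTTNTTT in 20 (27.0%), against 65.3%. Where the 3′ UTR had 500 bases or less, ATTTA was found in 35.0% of members and 27.7% of all genes, and TTTNTTT in 18.3% and 27.8%. The median relative log2 ratio was 0.51 for members with ATTTA and 0.36 for those without, and 0.39 with TTTNTTT and 0.41 without. Over all genes these medians were 0.02 and -0.01 for ATTTA, and 0.06 and -0.11 for TTTNTTT. Among members with 3′ UTRs of 500 bases or less they were 0.30 and 0.31 for ATTTA, and 0.23 and 0.40 for TTTNTTT. With the principal transcript in place of the longest 3′ UTR, ATTTA was found in 30 members and TTTNTTT in 19. The medians were then 0.47 and 0.41 for ATTTA and 0.46 and 0.40 for TTTNTTT. At 500 bases or less they were 0.28 and 0.41 for ATTTA and 0.15 and 0.41 for TTTNTTT, so members with a motif lay lower there. The members with a motif numbered 20 for ATTTA and 10 for TTTNTTT. Over all genes at 500 bases or less, those with a motif lay higher, at 0.05 and -0.04 for ATTTA and 0.19 and -0.08 for TTTNTTT.

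Complex III had the largest SD of levels among the complexes, with an SD of log2 FPKM of 2.98 in control and 2.85 in HuR-FKO, against 2.01 and 1.97 over all members. Its core proteins Uqcrc1 (6.03 and 16.7 FPKM) and Uqcrc2 (2.74 and 27.2 FPKM) were low for the group, and the Rieske iron-sulfur protein Uqcrfs1 was at 20.8 and 92.4 FPKM. The small subunits Uqcr10, Uqcr11, Uqcrh and Uqcrq were at 219 to 598 FPKM in control and 958 to 1808 FPKM in HuR-FKO. Uqcrc2 was 9.92-fold higher in HuR-FKO and the single member at least 2-fold below the median ratio, on about 19.6 fragments in control, and its exons overlap Pdzd9. Uqcrb, which contacts the ubiquinone site, was furthest toward control at 41.9 and 61.8 FPKM, 3.17-fold above the median ratio. Summed with its 4 near copies it stayed there, at a relative log2 ratio of 1.81 against 1.66 alone.

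In complex IV, cytochrome c oxidase, the ubiquitous isoforms had the higher values. Several tissue isoforms were listed at 0, which can be a failed estimate: Cox11 and Lyrm7, assembly factors in general use, were also listed at 0 in both libraries. Cox6a1 was at 659 and 1025 FPKM, while the muscle isoform Cox6a2 was listed at 0 in both libraries. Cox6b1 (195 and 778 FPKM) and Cox7b (94.9 and 423 FPKM) likewise had partners, Cox6b2 and Cox7b2, that were listed at 0 in both. Cox7a2 was at 23.6 and 128 FPKM against 1.68 and 8.70 FPKM for Cox7a1, the form of muscle and brown fat. Cox8a was at 118 and 461 FPKM, Cox8b, also a form of muscle and brown fat, at 3.39 and 37.6 FPKM, and Cox8c was listed at 0 in control and at 2.97 FPKM in HuR-FKO. Cox8b was 11.1-fold higher in HuR-FKO, but its control value corresponds to about 6.00 fragments and that of Cox7a1 to about 4.42. Of the 7 brown and beige adipocyte markers, 4 were listed at 0 in each library. Their summed level was 1.58 FPKM in control and 6.27 FPKM in HuR-FKO, but most of the latter was Cidea, listed at 0 and 6.03 FPKM. Ppargc1a (1.29 and 0.236 FPKM), Dio2 (0.129 and 0.00965 FPKM) and Cpt1b (0.168 and 0 FPKM) had the higher value in control. Of 5 muscle markers, Ckm, Mylpf and Tnnt3 were listed at 0 in both and Myl1 was at 2.38 and 8.39 FPKM. The part of either cell type in these isoform values was not tested.

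The member of complex IV furthest toward control was Cox5a, an early-assembling subunit, at 57.5 FPKM in control and 55.9 FPKM in HuR-FKO, 4.79-fold above the median ratio. The higher of the pair of values turns with the scaling, and on TPM its log2 ratio was -1.32. It shares 269 exonic bases with Gm26631, a long noncoding RNA gene on the opposite strand that was at 23.2 and 96.2 FPKM. Cox6a1 followed at 2.99-fold above the median ratio. Cox5b, which carries a zinc ion, was at 34.7 and 183 FPKM, close to the typical gene. Cox7a2l, a factor that joins complexes III and IV and not a subunit, was at 60.9 and 152 FPKM. The relative log2 ratios of the other 10 members ran from -1.25 for Cox8b to 0.90 for Cox7a2l.

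In complex V the catalytic head was not uniform. Atp5b, the catalytic beta subunit, was at 109 FPKM in control and 1150 FPKM in HuR-FKO, 10.6-fold higher in HuR-FKO, whereas its partner Atp5a1, the alpha subunit, was at 54.9 and 167 FPKM, 1.54-fold above the median ratio. The central stalk subunits Atp5c1 (43.4 and 140 FPKM), Atp5d (59.7 and 178 FPKM) and Atp5e (300 and 945 FPKM) lay 0.53 to 0.64 above it. The 4 other subunits of the head and central stalk were thus alike, and Atp5b lay apart from them. Atp5a1 shares 129 exonic bases with Haus1, which was at 43.5 and 2.50 FPKM. In the peripheral stalk, Atp5o, which holds the head in place, was 7.54-fold higher in HuR-FKO at 42.4 and 320 FPKM. Atp5f1 (43.7 and 107 FPKM) and Atp5h (102 and 247 FPKM) lay 1.91-fold and 1.92-fold above the median ratio, and Atp5j (24.3 and 117 FPKM) near it.

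Subunit c, which forms the rotating ring, is encoded by 3 genes that give the same mature protein. Atp5g3 carried most of the signal, at 246 FPKM in control and 649 FPKM in HuR-FKO, and Atp5g1 was low at 1.53 and 4.08 FPKM. Atp5g2 was the only member at least 2-fold higher in control, at 21.0 FPKM against 5.45 FPKM, 3.85-fold higher and 17.9-fold above the median ratio, on about 102 and 44.1 fragments. The annotation holds pseudogenes with the same sequence, however: Gm10175 matched Atp5g2 at 100% over 645 bases and was at 24.3 and 102 FPKM, and Gm10231 at 100% over 441 bases and was at 24.0 and 104 FPKM. Both went in the opposite direction. How reads that match several of these genes were shared among them is not stated in the sources used. Summed with its near copies, weighted by transcript length, Atp5g2 was 2.67-fold higher in HuR-FKO and 0.80 above the median ratio, beside 0.82 for Atp5g3. With the copies summed no member was at least 2-fold higher in control. This sum was chosen after the values were seen.

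The last 60 coding bases before the stop codon are shown because they are where these genes can or cannot be told apart. They are read 5′ to 3′ from the mm10 annotation, and capitals mark bases that differ from Atp5g2. Positions, all on the minus strand, are chr15:102663017-102663076 for Atp5g2, chr11:96073107-96073166 for Atp5g1 and chr2:73908596-73908655 for Atp5g3. The matching stretches lie at chr7:23946795-23946854 in Gm10175 and chr17:5816203-5816262 in Gm10231.
Atp5g2: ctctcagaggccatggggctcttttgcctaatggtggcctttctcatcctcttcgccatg
Gm10175: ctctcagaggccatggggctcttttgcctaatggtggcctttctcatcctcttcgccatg
Gm10231: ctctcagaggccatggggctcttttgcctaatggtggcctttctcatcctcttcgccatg
Atp5g1: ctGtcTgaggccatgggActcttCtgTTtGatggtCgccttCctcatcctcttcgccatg
Atp5g3: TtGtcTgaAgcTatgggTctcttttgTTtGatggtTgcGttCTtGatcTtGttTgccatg

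Atp5g1 differed from Atp5g2 at 9 of the 60 bases and Atp5g3 at 17, while both pseudogenes differed at 0. Reads of this stretch can therefore separate the 3 subunit genes from each other but not Atp5g2 from its copies.

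**Figure D4:**
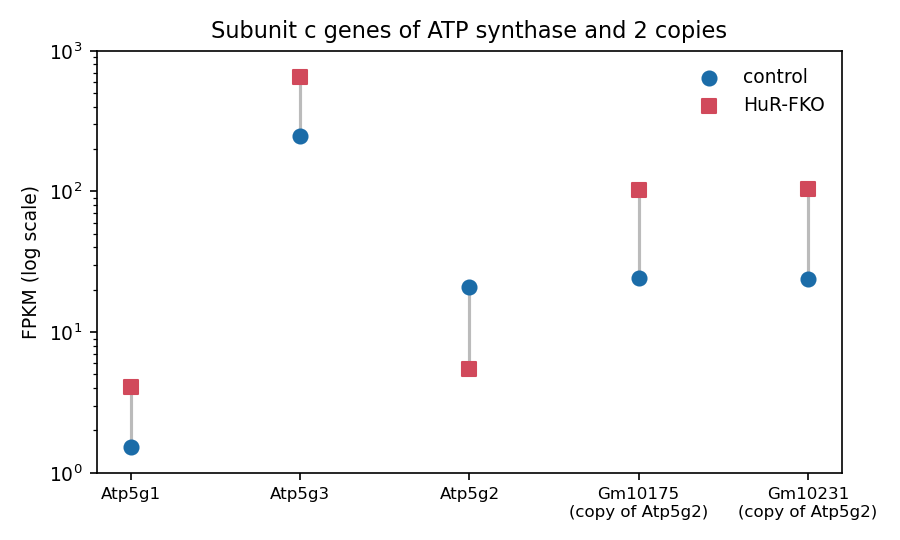
FPKM (log scale) of the 3 subunit c genes and of the 2 pseudogenes identical to Atp5g2 over the aligned bases, in control (blue circles) and HuR-FKO (red squares), with 1 library each. Atp5g2 is the gene with the higher value in control, and the copies run the other way, from about 24 to above 100 FPKM.

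Near copies and shared exons were common among the members. Of the 74, 30 had at least 1 near copy (90% identity over 200 bases or more) and 26 shared exonic bases with another gene. The 30 members with neither had a median relative log2 ratio of 0.26 and an SD of 0.99, and 21 of them lay above the median ratio; the 44 others had a median of 0.44. Some copies were themselves high, such as Gm10012 of Cox7c at 121 and 458 FPKM and BC002163 of Ndufs5 at 50 and 227 FPKM, which ran the way their members did. Cox6c2, a copy of Cox6c (150 and 507 FPKM), was at 117 and 113 FPKM and so did not. Both ends of the ratio range held such members. Of the 10 furthest toward control, Atp5g2, Cox5a, Ndufa13, Ndufb9 and Uqcrb share exonic bases and Cox6a1 has a near copy, and of the 10 furthest toward HuR-FKO, Atp5o, Ndufa9 and Uqcrc2 share exonic bases and Atp5b, Ndufa7 and Ndufb4 have near copies. At each end 4 members have neither. The study's methods describe strand-specific libraries for its RNA-seq, and whether the precipitates were counted by strand is not stated.

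Genes that belong to the same machinery were compared with the members. Subunits outside the name rule were listed with the inhibitor of the ATP synthase. All 4 of these genes that passed the minimum lay above the median ratio, Usmg5 by only 0.04 on the log2 scale. 2010107E04Rik (348 and 842 FPKM) and Usmg5 (91.9 and 418 FPKM), small subunits of the ATP synthase, and Ndufab1 (131 and 574 FPKM), the acyl carrier protein of complex I, had the higher FPKM in HuR-FKO, Ndufab1 at 0.09 above the median ratio on the log2 scale. Atpif1, which encodes the inhibitor of the ATP synthase, was at 27.8 FPKM in control and 13.2 FPKM in HuR-FKO, 3.30 above the median ratio on the log2 scale. Cox4i1 was not analysed here. The 13 subunits encoded in mitochondrial DNA had a median relative log2 ratio of 0.57 with 11 above the median ratio, next to 0.41 for the nuclear members. Of these, mt-Atp8, mt-Nd5 and mt-Nd6 had the higher FPKM in control.

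Assembly factors, which build the complexes without staying in them, were mostly less abundant. For complex I, 9 of 13 passed the minimum, with a median relative log2 ratio of -1.37 and 3 of the 9 above the median ratio. Of these 9, 8 passed through HuR-FKO alone, which by itself puts their FPKM higher in HuR-FKO, and Ndufaf1 (1.47 and 0.0490 FPKM) and Tmem126b (1.37 and 1.64 FPKM) did not pass, so the median is not comparable with that of the subunits. Ndufaf6 was at 0.350 and 170 FPKM, Ndufaf2 at 0.569 and 21.7 FPKM and Ecsit at 0.287 and 12.2 FPKM, and Nubpl, which delivers iron-sulfur clusters to complex I, was listed at 0 in control and at 19.9 FPKM in HuR-FKO. Ndufaf4 ran the other way at 12.8 and 5.75 FPKM. The low control values are under 1 FPKM, so these ratios are loose. For complex IV, 10 of 19 passed with a median of 0.57, including Cox17 (481 and 1265 FPKM), the copper chaperone, and Cox16 (139 and 320 FPKM). Of these 10, 3 passed through HuR-FKO alone. Assembly factors of complexes II, III and V had 1, 1 and 2 genes over the minimum.

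Electron carriers and ubiquinone synthesis genes had 8 of 11 over the minimum and a median of 0.87. Of these 8, 2 passed through HuR-FKO alone and 1, Coq2, through control alone. Cycs, which encodes cytochrome c, was at 6.41 and 16.6 FPKM, and Etfb, a subunit of the electron transfer flavoprotein, at 161 and 771 FPKM. Coq2, an enzyme of ubiquinone synthesis, was at 9.24 FPKM in control and 2.83 FPKM in HuR-FKO. Of 7 regulators of OXPHOS gene transcription, 3 passed the minimum: Esrra at 4.96 and 5.57 FPKM, Yy1 at 3.20 and 16.7 FPKM and Nrf1 at 0.265 and 5.80 FPKM. All 3 passed through HuR-FKO alone, which by itself puts their FPKM higher there. Ppargc1a, the coactivator of mitochondrial biogenesis, was at 1.29 and 0.236 FPKM and Tfam, a factor of mitochondrial DNA, at 0.759 and 1.64 FPKM. These lists lay on both sides of the typical gene, as the members did. For genes that passed through a single library, however, the minimum set which FPKM was higher.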

How the data were processed

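RNA immunoprecipitated with an anti-HuR antibody from epididymal fat was sequenced, with 1 library for control and 1 for HuR-FKO, assigned by the genotype label. The authors deposited FPKM values per gene in 1 table. The submitters' processing notes name mm10, TopHat2 2.0.11 and Cufflinks 2.1.1; the annotation, the strand setting used for these counts and the treatment of reads with several matches are not given in the sources used.

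Rows were joined by gene identifier to GENCODE M21 (GRCm38, the same build), where 36573 rows matched and 1823 did not; 21204 were protein-coding. Values under 0.1 FPKM were raised to 0.1 and protein-coding genes with at least 5 FPKM in either library were kept. Since an exact 0 may come from an estimate that failed, no fold is printed for such a gene, although its ratio at the minimum of 0.1 enters medians and counts over lists. With 1 library per group no test could be run. Library totals were estimated by scanning totals for whole steps between low values; in control 37.5% of 911 values, and in HuR-FKO 31.1% of 628, were whole within 0.05, against 10% by chance, so reads were not recovered. Near copies were found with BLAST 2.17.0. Motif shares use the longest annotated 3′ UTR, and printed sequences the principal transcript. Python 3.11.15, pandas 2.3.3 and numpy 2.4.6 were used, and the code was tested on simulated data.

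The members and gene lists were chosen with earlier results of these data known. Any member could be named; those described singly were the 10 highest and 10 lowest ratios among members whose lower value was 1 FPKM or more, the 8 most abundant per library, the nuclear core of complex I, complex II and the isoform sets. The values of 1 core subunit of complex I are counted in the summaries but not reported here. Other genes came from lists of subunits outside the name rule (with the inhibitor of the ATP synthase), mitochondrially encoded subunits, assembly factors, electron carriers and regulators. Cell type markers were also used. Over the minimum were 1 of 3 macrophage markers (Lyz2 at 8.37 and 27.9 FPKM, while Cd68 was listed at 0 in both), 1 of 4 endothelial markers (Cdh5 at 5.06 and 8.96 FPKM) and 3 of 3 red cell markers (Hbb-b1 at 221 and 476 FPKM, while Alas2 was at 8.14 and 1.92 FPKM). Those of epididymis were listed at 0 in both libraries, and of testis markers Prm1 was at 7.73 and Prm2 at 2.22 FPKM in HuR-FKO alone. Alternatives covered pseudocounts, filters, scalings and subsets of members.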

Additional observations from a re-analysis of the deposited data

How the results depend on the processing

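No paired analysis was possible because there is 1 library per genotype. Of 144 values of the main comparisons under alternatives, 124 stayed within the interval of the main median or within 1.5 times the main count. The interval is a 95% binomial one over genes, and for the 4 genes of complex II it is their full range. Part of the 124 was fixed beforehand: no scaling changes a relative median, and leaving out members at 0 removed none of the 74. Such values are no sign that a result is stable. The scaling decided direction on the deposited scale: the member median log2 ratio was 0.33 with median centring, 0.16 with upper-quartile scaling and -3.18 on TPM, where 0 members were at least 2-fold higher in control. Members at least 2-fold higher in HuR-FKO numbered 6 and 7 after the first 2 scalings, and those higher in control 12 and 9. With no filter, where genes near 0 in both libraries take a ratio near 0, the median of all genes was -0.76, the member median relative to it -0.94 with 2 members at least 2-fold higher in control, and the medians of complexes I to V -1.13, -0.12, -1.27, -1.22 and -0.81. The single member at least 2-fold higher in control, Atp5g2, was lost (0 members) without members that overlap another gene, which also left 37 of 40 at least 2-fold higher in HuR-FKO, with near copies summed, and without members under 50 estimated fragments in either library; the last pair of settings was added after seeing the data. With the subunits outside the name rule and the inhibitor of the ATP synthase, the number higher in control was 2, the inhibitor gene Atpif1 being the other. The relative member median stayed between 0.10 (pseudocount of 1) and 0.55 (without transcripts under 500 bases) in the other alternatives. With a pseudocount of 1, 12 members near the median ratio changed side of it, among them Uqcrfs1, Uqcr10, Uqcr11 and Uqcrq, and the medians of complexes III and IV turned to -0.12 and -0.07; with a filter of 20 FPKM that of complex III was -0.04. Uqcrq also changed side with a pseudocount of 0.1. On TPM the log2 ratio of Cox5a turned from 0.04 to -1.32. Few fragments limit the largest folds: 8 members had under 50 estimated fragments in control.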
